A study of Mus musculus with 34 samples.

Results

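The genes described here are 10 genes that mark T cells and natural killer (NK) cells: Cd3d, Cd3e, Cd3g, Cd4, Cd8a, Cd2, Lck, Il2rb, Nkg7 and Gzma. They were taken as a named list, and all 10 were found among the 23509 gene symbols in the count table of every mouse. Polyadenylated kidney RNA from 34 C57BL6 mice was sequenced at postnatal day 28 (P28), with 1 library per mouse. Pkd2-KO mice received subcutaneous RGLS4326 at 20 mg per kg (n = 11) or PBS (n = 11) on P10, P11, P12 and P19, and untreated non-transgenic wildtype mice (UNT, n = 12) were the controls. The labels spell the genotype "Pdk2KO". In this model (Pkhd1/cre;Pkd2 F/F) a Cre driven by Pkhd1 deletes floxed Pkd2, and its cysts include those of collecting ducts, so the deletion depends on the cells in which that driver is active. UNT mice differ from PBS mice in both genotype and injection, so these cannot be told apart in that comparison. RGLS4326, which binds the seed of the microRNA miR-17 and blocks it, is a small oligonucleotide with chemical modifications, and the study asked what this inhibition changes in polycystic kidneys. Mice were assigned to treatment at random. No mouse described here received a control oligonucleotide, so an effect of any oligonucleotide cannot be told apart from that of miR-17 inhibition.

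T cells recognise antigen with a receptor that signals through the CD3 chains, aided by the coreceptors CD4 or CD8 and by the kinase LCK that these coreceptors carry. NK cells and cytotoxic T cells kill target cells with granule proteases called granzymes and respond to the cytokines interleukin-2 and interleukin-15. Both kinds of lymphocyte are sparse in the healthy kidney and collect in the interstitium of injured or cystic kidneys. In RNA from whole kidneys, fewer cells of a type and less RNA per cell cannot be told apart.

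Library depth ranged from 17603122 to 54981992 reads in genes. Pkd2 itself stood at 219.6 to 337.7 CPM (counts scaled to a common library size) in UNT, 98.0 to 214.5 in PBS and 170.0 to 236.9 in RGLS4326 mice. PBS mice had less Pkd2 RNA than UNT mice (log2 fold change -0.78, SE 0.09, adjusted p = 1.4e-09, quasi-likelihood test of edgeR, used for every adjusted p unless another tool is named). UNT libraries also had more reads that did not map uniquely (22.8% to 25.7%, against 14.8% to 19.4% in the other groups), and the part of this in the differences from UNT was not tested. PBS mice 9, 10 and 11 stood above the other 8 PBS mice for most of the genes described here, so the values between RGLS4326 and PBS are given with and without them. The names of the count tables number the libraries in 3 runs of numbers, here called numbering sets, and these 3 mice belong to set 3.

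The 10 genes were a small part of the RNA. Their summed level was 5.47 to 10.3 CPM in UNT mice, 21.0 to 58.7 CPM in PBS mice and 14.6 to 30.5 CPM in RGLS4326 mice. The Pkd2-KO groups therefore lay above every UNT mouse. Each library held from 124 to 472 reads of these genes in UNT, 557 to 2331 in PBS and 405 to 1135 in RGLS4326, so counting error was large for several of them in UNT mice. CPM values were scaled by TMM factors (trimmed mean of M values), and levels are compared between genes only per kilobase of exon.

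Cd3g, Cd3d and Cd3e encode CD3 chains and lie side by side on chromosome 9 (GRCm38, GENCODE M21). Cd3g spans chr9:44969572-44980431 on the minus strand, Cd3d spans chr9:44981786-44987339 on the plus strand and Cd3e spans chr9:44998740-45009627 on the minus strand. The starts of Cd3g and Cd3d face away from each other across 1354 bases, and 11400 bases separate Cd3d from Cd3e. Cd3e shares 135 exonic bases with Gm48719 on the opposite strand, whose reads could not be separated without a stated strand setting, while Cd3g and Cd3d share no exonic base with another gene. The 250 bases before each RefSeq start (GRCm38.p6) are shown, read 5′ to 3′ on the gene's strand. Matches to the letters AGGAAG (an ETS core) and CAGGTG (an E-box) on either strand are in capitals. The windows lie at chr9:44980432-44980681 (minus), chr9:44981536-44981785 (plus) and chr9:45009612-45009861 (minus).
Cd3g: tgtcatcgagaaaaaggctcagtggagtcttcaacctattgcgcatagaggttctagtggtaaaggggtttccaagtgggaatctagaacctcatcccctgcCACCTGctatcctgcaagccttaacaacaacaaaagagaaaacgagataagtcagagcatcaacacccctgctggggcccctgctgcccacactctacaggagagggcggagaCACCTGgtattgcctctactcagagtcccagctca
Cd3d: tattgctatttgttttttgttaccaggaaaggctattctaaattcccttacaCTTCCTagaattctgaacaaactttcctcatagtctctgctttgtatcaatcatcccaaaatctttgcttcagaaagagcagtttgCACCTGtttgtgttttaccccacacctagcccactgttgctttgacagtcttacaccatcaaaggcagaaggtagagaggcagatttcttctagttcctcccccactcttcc
Cd3e: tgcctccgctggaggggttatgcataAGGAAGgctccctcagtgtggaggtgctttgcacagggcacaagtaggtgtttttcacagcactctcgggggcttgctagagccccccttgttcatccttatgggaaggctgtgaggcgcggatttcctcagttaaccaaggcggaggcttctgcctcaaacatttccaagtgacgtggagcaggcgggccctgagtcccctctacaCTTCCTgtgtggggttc

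The promoter table held 8 windows of 7 of the 10 genes. The ETS letters were found in 5 of the 8 windows (of Cd3d, Cd3e, Lck and Nkg7), against 29.5% of all 32851 windows. The E-box letters were found in 4 of the 8 (of Cd3d, Cd3g, Gzma and Lck), against 17.2% of windows, and the letters TGTGGT, a RUNX core, in 3 of the 8 (of Gzma, Lck and Nkg7), against 14% of windows, all on either strand. In the windows shown no match overlaps another. These matches are descriptions of the sequence only.

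Since RGLS4326 is directed at miR-17, the longest 3′UTR that GENCODE M21 gives for each gene was searched for 2 kinds of 7-base site of miR-17, the complement of the whole seed (GCACTTT) and the complement of bases 2 to 7 followed by an A opposite base 1 (CACTTTA). The mature microRNA (RefSeq, GRCm38.p6, chr14:115043684-115043706, plus strand) is shown with bases 2 to 8, the seed, in capitals, followed by the sites found with their 7 bases in capitals, of which the last, the A, does not pair with the microRNA.
miR-17-5p: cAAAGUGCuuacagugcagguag
Cd4: aattcataagcCACTTTAatgtcccaggc
Cd8a: taagaatttcaCACTTTAgtgttaaaagc
Of the 10 genes, 2 held a site, in both the letters CACTTTA with 6 pairing bases, and none held the letters GCACTTT. Among the 14200 tested genes with an annotated 3′UTR, 21.9% held a site of either kind, with a median 3′UTR of 1316 bases. The 3′UTRs of Cd2 (58 bases), Gzma (67), Nkg7 (152), Cd3g (363), Lck (454), Cd3e (791) and Cd3d (995) were shorter than this median. Those of Cd4 (1553), Il2rb (2220) and Cd8a (2306) were longer. A short 3′UTR leaves fewer places for a site, and the share does not take length into account. The Cd4 window lies at chr6:124865619-124865647 (minus strand) and the Cd8a window at chr6:71377917-71377945 (plus strand), both within 1 exon. The other 8 genes, the CD3 chains included, held no such site.

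**Figure D1:**
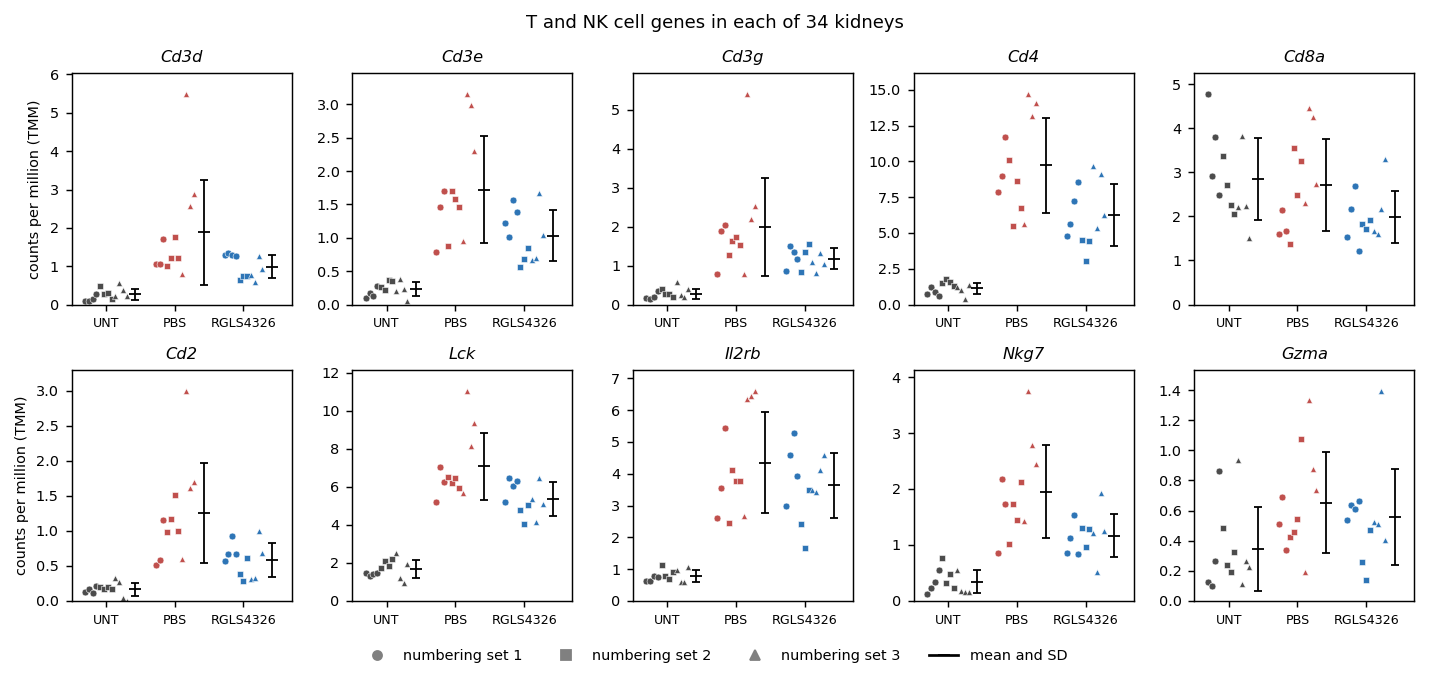
Level of each of the 10 genes in every kidney, in TMM-scaled CPM on a linear axis from 0, by group, with 1 point per mouse, its shape giving the numbering set, and the mean and SD at the right of each group. For 8 genes every PBS mouse lies above every UNT mouse, while Cd8a lies at 1.52 to 4.77 in UNT and 1.38 to 4.45 in PBS, and PBS mice 9 to 11 are the highest triangles in most panels.

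To ask which of these genes differ between cystic and wildtype kidneys, PBS mice were compared with UNT mice. Of the 10 genes, 9 were higher and 0 lower in PBS, where 43.1% of the 15644 tested genes were higher and 39.0% lower (82.1% called in all). For 8 of the 10 every PBS mouse lay above every UNT mouse, against 22.7% of tested genes with groups apart in that direction and 19.8% in the other. The median log2 fold change of the 10 genes was 2.60, beside 0.04 over all tested genes. Cd2, the CD3 chains, Nkg7 and Gzma passed the low-count filter mainly through the Pkd2-KO mice, with 0 to 4 of the 12 UNT libraries over the cutoff of 0.3 CPM, so for them a difference was in part a condition of being tested.

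Cd3d, the delta chain of CD3, had 3 to 25 counts per library in UNT (0.097 to 0.567 CPM, median 0.252). In PBS mice it had 27 to 181 counts (0.807 to 5.48 CPM, median 1.22), and in RGLS4326 mice 15 to 49 counts (0.585 to 1.35 CPM, median 0.925). UNT mice were below every Pkd2-KO mouse, and mouse 9 set the PBS maximum while mouse 8 of the same numbering set was the lowest. The PBS level was 6.76-fold that in UNT (log2 fold change 2.76, SE 0.30, adjusted p = 2.84e-10). Without PBS mice 9 to 11 it was 4.30-fold (adjusted p = 1.89e-09).

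Cd3e, the epsilon chain, had 1 to 17 counts per library in UNT (0.056 to 0.386 CPM, median 0.223). It stood at 0.783 to 3.15 CPM in PBS (median 1.57) and 0.563 to 1.67 CPM in RGLS4326 mice (median 1.01). Again no Pkd2-KO mouse reached down to the UNT range. The difference of PBS from UNT was 7.17-fold (log2 fold change 2.84, SE 0.26, adjusted p = 2.6e-12).

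Cd3g, the gamma chain, had 4 to 23 counts per library in UNT (0.134 to 0.583 CPM, median 0.256), 0.783 to 5.39 CPM in PBS (median 1.74) and 0.805 to 1.56 CPM in RGLS4326 mice (median 1.16). The 3 chains had the same order of groups. PBS was 6.97-fold UNT for Cd3g (log2 fold change 2.80, SE 0.26, adjusted p = 5.02e-12). Cd247, the zeta chain of the same receptor complex, had a mean of 0.67 ± 0.20 CPM (SD) over the 12 UNT mice and of 1.34 ± 0.58 CPM over the 11 PBS mice, a smaller log2 fold change of 1.03 (adjusted p = 2.21e-05). The difference between Cd247 and the other chains was not tested.

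Cd4, the coreceptor of helper and regulatory T cells, lies at chr6:124864692-124888221 (minus strand). It had 11 to 81 counts per library in UNT (0.418 to 1.77 CPM, median 1.21), 201 to 724 in PBS (5.46 to 14.7 CPM, median 8.95) and 85 to 341 in RGLS4326 mice (3.02 to 9.66 CPM, median 5.63). All 22 Pkd2-KO mice were above all UNT mice. The PBS level was 8.53-fold that in UNT (log2 fold change 3.09, SE 0.22, adjusted p = 2.51e-15), the largest fitted change among the 10 genes. Macrophages and dendritic cells can also carry CD4, and their part in the Cd4 level was not tested.

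Cd8a, the alpha chain of the coreceptor of cytotoxic T cells, lies at chr6:71373427-71379173 (plus strand) and shares no exonic base with another gene. It had 27 to 168 counts per library in UNT (1.52 to 4.77 CPM, median 2.59), 41 to 179 in PBS (1.38 to 4.45 CPM, median 2.47) and 22 to 101 in RGLS4326 mice (1.22 to 3.30 CPM, median 1.82). The groups overlapped over nearly their whole range, as they also did widely for Gzma. The PBS level was not distinguishable from that in UNT (log2 fold change -0.07, 95% interval -0.44 to 0.30, adjusted p = 0.739), and 4 of the 11 PBS mice were above the UNT mean. In numbering set 1 alone Cd8a was lower in PBS (log2 fold change -0.99), and in set 3 alone its value was 0.46 (adjusted p = 0.216).

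Cd8b1, which encodes the beta chain with which CD8 alpha pairs on most cytotoxic T cells, did not share this pattern. Its mean was 0.23 ± 0.13 CPM over UNT mice and 1.63 ± 0.85 CPM over PBS mice (log2 fold change 2.84, adjusted p = 7.34e-11). Cd8a had a median of 13.2 counts per Cd8b1 count in UNT (5.47 to 49.3), 1.63 in PBS (1.40 to 2.69) and 1.84 in RGLS4326 mice (1 to 2.63). All UNT mice therefore lay above all Pkd2-KO mice in this ratio. UNT libraries held only 2 to 18 Cd8b1 counts each, which widens the UNT range. CD8 alpha is also present without the beta chain on some dendritic cells and innate lymphocytes, and their part in the Cd8a level was not tested.

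Relative to the summed CPM of the CD3 chains, Cd8a had a median ratio of 2.93 in UNT (2.18 to 13.5), 0.488 in PBS (0.307 to 0.907) and 0.615 in RGLS4326 mice (0.319 to 1.09). Again no Pkd2-KO mouse reached the UNT range. The ratio of Cd4 to the CD3 chains overlapped between the groups, with medians of 1.73 in UNT, 1.83 in PBS and 2.07 in RGLS4326 mice. So did the ratio of Cd2 to the CD3 chains, with medians of 0.230 in UNT, 0.22 in PBS and 0.175 in RGLS4326 mice.

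**Figure D2:**
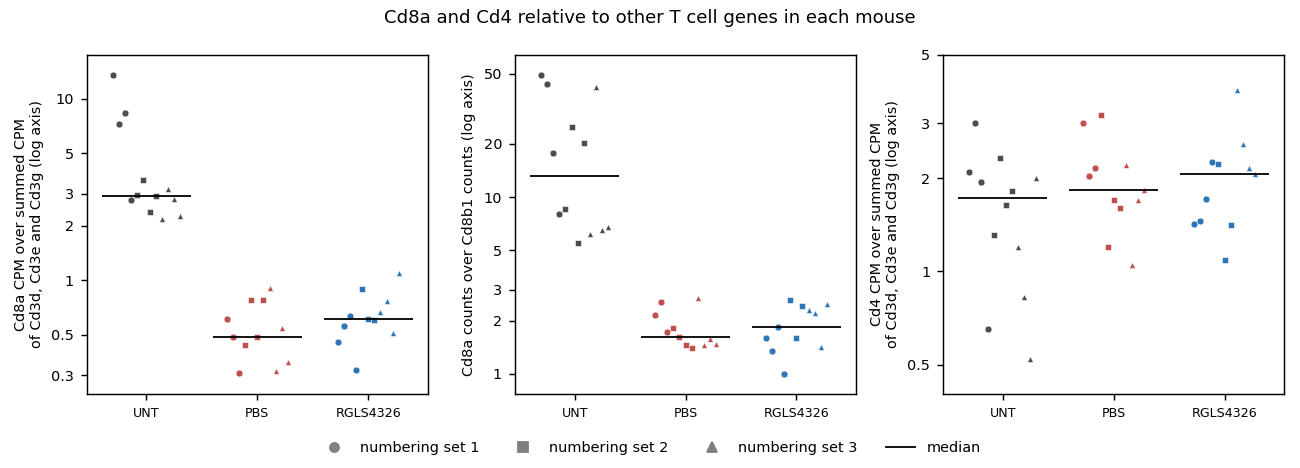
Ratio of Cd8a to the summed CD3 chains (left, CPM over CPM), of Cd8a to Cd8b1 (middle, counts over counts) and of Cd4 to the CD3 chains (right), each on a log axis, with 1 point per mouse, shapes for the numbering sets and a line at each group's median. The UNT mice stand above all Pkd2-KO mice in the left and middle panels, with medians of 2.93 and 13.2, while the groups overlap for Cd4.

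Cd2, an adhesion receptor of T and NK cells, lies at chr3:101275899-101287939 (minus strand) and was among the lowest genes. It had 0 to 13 counts per library in UNT (0 to 0.330 CPM, median 0.176), and its 0 in UNT mouse 12 allows up to 0.168 CPM (3 counts, for counting error only). It had 13 to 99 counts in PBS (0.509 to 3.0 CPM, median 1.16) and 8 to 37 in RGLS4326 mice (0.285 to 0.993 CPM, median 0.617). PBS mice were above all UNT mice, with a 7.05-fold difference (log2 fold change 2.82, SE 0.30, adjusted p = 1.02e-10).

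Lck, the kinase that starts signalling at the T cell receptor, lies at chr4:129548344-129573641 (minus strand) and shares 25 exonic bases with Mir8119 on the same strand. It had 25 to 99 counts per library in UNT (0.950 to 2.51 CPM, median 1.61), 133 to 480 in PBS (5.21 to 11.1 CPM, median 6.49) and 111 to 241 in RGLS4326 mice (4.02 to 6.47 CPM, median 5.22). UNT and Pkd2-KO mice did not overlap, and the SD relative to the mean was the smallest of the 10 genes in PBS (24.9%) and in RGLS4326 mice (16.2%). PBS was 4.18-fold UNT (log2 fold change 2.07, SE 0.14, adjusted p = 6.37e-16).

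Il2rb encodes the beta chain of the interleukin-2 and interleukin-15 receptors, abundant on NK cells and activated T cells, and lies at chr15:78479256-78495271 (minus strand). It had 16 to 52 counts per library in UNT (0.590 to 1.14 CPM, median 0.766), 67 to 340 in PBS (2.45 to 6.61 CPM, median 3.77) and 47 to 198 in RGLS4326 mice (1.67 to 5.27 CPM, median 3.50). Pkd2-KO mice were all above UNT mice, and PBS and RGLS4326 mice covered much the same range. The PBS level was 5.45-fold that in UNT (log2 fold change 2.45, SE 0.19, adjusted p = 3.2e-14).

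Nkg7, a granule protein of cytotoxic lymphocytes, lies at chr7:43437073-43438249 (plus strand). It had 3 to 35 counts per library in UNT (0.129 to 0.766 CPM, median 0.281), 22 to 126 in PBS (0.862 to 3.76 CPM, median 1.73) and 14 to 72 in RGLS4326 mice (0.512 to 1.93 CPM, median 1.22). PBS mice were above all UNT mice, while 10 of the 11 RGLS4326 mice were. The PBS level was 5.47-fold that in UNT (log2 fold change 2.45, SE 0.26, adjusted p = 1.08e-10).

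Gzma encodes granzyme A, a protease of NK and cytotoxic T cell granules, and lies at chr13:113093825-113100981 (minus strand). It had 3 to 37 counts per library in UNT (0.10 to 0.939 CPM, median 0.253), 8 to 44 in PBS (0.190 to 1.33 CPM, median 0.546) and 4 to 52 in RGLS4326 mice (0.142 to 1.40 CPM, median 0.523). The groups overlapped widely, and only 2 of the 11 PBS mice exceeded the highest UNT mouse. The difference of PBS from UNT was 1.87-fold (log2 fold change 0.90, SE 0.34, adjusted p = 0.0159). It was not called without PBS mouse 9, without PBS mice 9 to 11 (0.56, adjusted p = 0.163) or within any numbering set, and its sign turned (-0.07, adjusted p = 0.904) once a covariate for reads outside genes was added.

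Per kilobase of exon, the order of the levels changed between groups. In UNT mice Cd8a was first (0.781 ± 0.256 CPM per kb, SD, n = 12), followed by Lck (0.575 ± 0.156), and Cd3e was last (0.056 ± 0.026). In PBS mice Lck (2.42 ± 0.60) and Cd4 (2.41 ± 0.82) led, Cd8a was sixth (0.745 ± 0.289) and Cd3e was again last (0.422 ± 0.195, n = 11). RGLS4326 mice had the same first 3 genes as PBS mice, Lck (1.83 ± 0.30), Cd4 (1.55 ± 0.54) and Nkg7 (1.28 ± 0.42). In each group every gene's level lay within 1 SD of the next in order, taking both SDs, so no neighbours in the order were apart beyond their spread.

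To ask whether RGLS4326 changed these genes in cystic kidneys, RGLS4326 mice were compared with PBS mice. This comparison uses the same 11 PBS mice as the one above, so a high PBS mouse moves both. Of the 10 genes, 7 were lower with RGLS4326 and 0 were higher, where 18.5% of tested genes were lower and 15.3% higher (33.8% in all). The median log2 fold change was -0.69, beside 0.0022 over all tested genes, and without PBS mice 9 to 11 it was -0.30, beside 0.013. The ranges of the groups overlapped for all 10, and 0.0192% of tested genes had RGLS4326 mice all below PBS mice and 0.0447% all above.

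Cd2 had the largest fitted difference, with an RGLS4326 level 47.2% of that in PBS (log2 fold change -1.08, SE 0.27, adjusted p = 0.00549), and all 11 RGLS4326 mice were below the PBS mean. The CD3 chains were lower by similar amounts, with fitted levels of 52.5% of PBS for Cd3d (adjusted p = 0.0135), 60.0% for Cd3e (adjusted p = 0.0174) and 59.4% for Cd3g (adjusted p = 0.0172). Nkg7 stood at 60.1% of PBS (log2 fold change -0.73, SE 0.24, adjusted p = 0.0213). The values of these genes were closer to 0 and not called without PBS mice 9 to 11, with fitted levels of 63.5% of PBS for Cd2, 81.4% for Cd3d (log2 fold change -0.30, adjusted p = 0.363), 79.4% for Cd3e (-0.33, adjusted p = 0.29), 81.3% for Cd3g (-0.30, adjusted p = 0.299) and 75.8% for Nkg7 (-0.40, adjusted p = 0.252). With all mice, for each of these genes all 11 RGLS4326 mice lay below the PBS mean, which PBS mice 9 to 11 raise, while the ranges of the groups overlapped.

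Cd4 stood at 64.2% of PBS (log2 fold change -0.64, SE 0.20, adjusted p = 0.0169) and Lck at 75.7% (log2 fold change -0.40, SE 0.13, adjusted p = 0.0227). For both, 5 of the 11 RGLS4326 mice were below the lowest PBS mouse. When PBS mice 9 to 11 were left out, Cd4 stood at 77.4% of PBS (-0.37, adjusted p = 0.203) and Lck at 87.7% (-0.19, adjusted p = 0.297), and neither was called. The other 3 genes were not called with all mice. The values were -0.45 for Cd8a (95% interval -0.84 to -0.06, adjusted p = 0.0747), -0.26 for Il2rb (-0.61 to 0.09, adjusted p = 0.248) and -0.20 for Gzma (-0.86 to 0.47, adjusted p = 0.665). Without these 3 PBS mice they were -0.20 for Cd8a (adjusted p = 0.509), 0.05 for Il2rb (adjusted p = 0.87) and 0.12 for Gzma (adjusted p = 0.847).

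The count of calls between RGLS4326 and PBS depended on 3 PBS mice. For 8 of the 10 genes, PBS mice 9, 10 and 11 were all above the highest of the other 8 PBS mice, the exceptions being Cd8a (2 of the 3) and Gzma (1 of the 3). Their Cd3d levels, for example, were 5.48, 2.57 and 2.88 CPM, against 0.807 to 1.77 CPM in the other PBS mice. Without these 3 mice, which were chosen after their values were seen, 0 of the 10 genes were called over the remaining 31 mice, where 4.13% of tested genes were lower. An unadjusted p under 0.05 was found for 1 gene, Cd2 (log2 fold change -0.65, adjusted p = 0.0884). Without PBS mouse 9 alone 3 were called lower (Cd2, Cd3e and Cd4), where 13.2% of tested genes were.

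These 3 mice stood apart in some other immune genes and not in others. Their summed level of 8 pan-leukocyte genes was 878.4, 740.5 and 742.7 CPM, against 399.9 to 619.3 CPM in the other PBS mice. The summed level of 23 NK and cytotoxic genes was 39.8, 27.9 and 24.1 CPM, against 11.0 to 23.1 CPM. The T cell receptor signalling list was also above in all 3, while 2 of the 3 were above the other PBS mice for the B cell, dendritic cell and T cell subset lists, 1 for the macrophage, neutrophil and cytokine lists (macrophage genes 1906, 1561 and 1736 CPM, against 758.3 to 1758 CPM) and 0 for the innate lymphoid and mast cell list. Pkd2 was 98.0, 146.5 and 140.1 CPM in them, against 144.2 to 214.5 CPM in the others. Their shares of reads in no gene (5.67%, 6.62% and 6.33%) lay within the range of the other PBS mice (5.18% to 9.0%).

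The treatment difference was also recomputed with the numbering sets. With the set as a factor in the fit of all 34 mice, PBS mice 9 to 11 included, 7 of the 10 were called lower. In that fit 3232 of 15644 tested genes were lower. Each set was then fitted alone. In set 1 alone (4 RGLS4326 against 3 PBS mice) 0 of the 10 were called, where 0.0826% of tested genes were lower, and 6 of the 10 values were below 0. In set 2 alone (3 against 4 mice) 4 were called lower (Cd2, Cd3e, Cd4 and Lck), where 11.9% of tested genes were, with a log2 fold change of -1.39 for Cd2 (adjusted p = 0.00778) and -0.93 for Cd4 (adjusted p = 0.0128). Set 2 holds none of PBS mice 9 to 11. Its RGLS4326 libraries had 11.3%, 11.4% and 12.0% of reads in no gene, and its PBS libraries 5.49% to 9.0%. Treatment and this share therefore cannot be told apart in set 2. In set 3 alone (4 against 4 mice), which holds PBS mice 8 to 11, all 10 values were below 0 and 0 were called, as were 0% of the 15676 genes tested, with 6 of the 10 and 2826 of all genes at an unadjusted p under 0.05. A test of the difference between sets called 0 of the 10 genes and 0 of all genes, the lowest adjusted p of the 10 being 0.653 (Cd3d, unadjusted p = 0.0138).

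Reads outside genes differed between libraries, and their share was added as a covariate. The share was 5.18% to 9.0% in PBS, 4.94% to 12.0% in RGLS4326 and 9.84% to 11.3% in UNT libraries. With the covariate 0 of the 10 were called lower, where 0.211% of tested genes were. Cd2 then had a log2 fold change of -0.87 (adjusted p = 0.119) and Cd3d of -0.61 (adjusted p = 0.255). Of the 10 genes, 9 had values below 0 in this fit, and 5 had an unadjusted p under 0.05. What the covariate stands for was not tested.

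**Figure D3:**
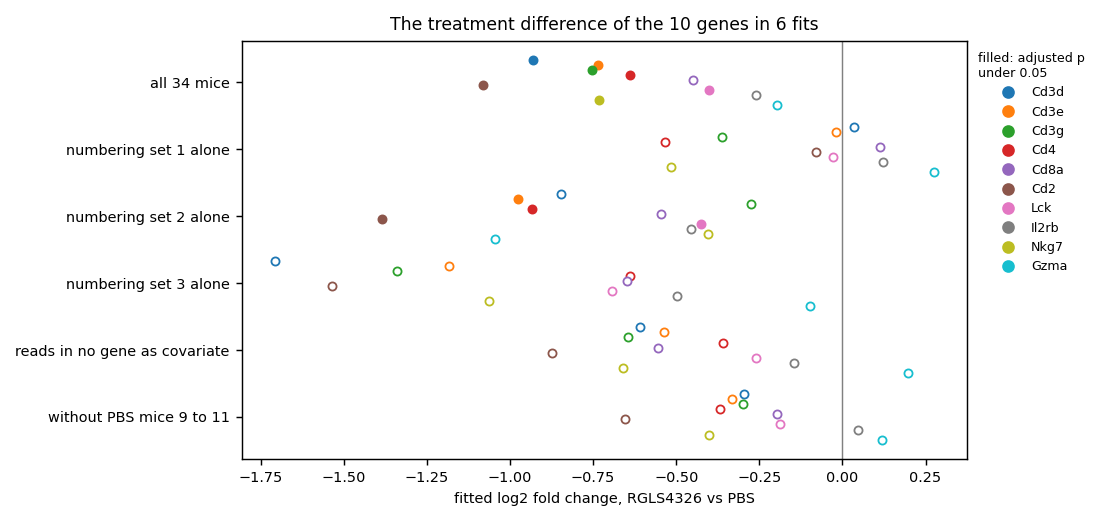
Fitted log2 fold change of RGLS4326 against PBS for the 10 genes in 6 fits, 1 row per fit and 1 colour per gene, filled where the adjusted p was under 0.05. With all 34 mice 7 points are filled and all lie below 0, numbering set 2 alone has 4 filled, and the other 4 fits have 0.

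Compared with UNT, RGLS4326 mice still had higher levels of 8 of the 10 genes, where 40.8% of tested genes were higher, and a lower level of 1, where 36.9% were lower. For 6 genes all RGLS4326 mice lay above all UNT mice, against 20.7% of tested genes, while 16.1% had RGLS4326 mice all below UNT. Cd4 was 5.48-fold UNT (log2 fold change 2.45, SE 0.22, adjusted p = 1.42e-12), Il2rb 4.55-fold (adjusted p = 9.37e-13) and Cd3e 4.30-fold (adjusted p = 8.85e-09). Cd3g was 4.14-fold, Cd3d 3.55-fold, Cd2 3.33-fold, Nkg7 3.29-fold and Lck 3.17-fold UNT. For each of these 8 genes all 11 RGLS4326 mice lay above the UNT mean. In all, 77.7% of tested genes were called in this comparison.

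Cd8a was the gene called lower, at 69.8% of UNT (log2 fold change -0.52, SE 0.19, adjusted p = 0.016), with 10 of the 11 RGLS4326 mice below the UNT mean. It was not called with the covariate, within sets 2 or 3, or when libraries were scaled by total counts (-0.20), a scaling that took the median log2 fold change of all genes to 0.33 in both comparisons with UNT, from 0.04 in PBS vs UNT and 0.02 in RGLS4326 vs UNT. Gzma was at 1.63-fold UNT (log2 fold change 0.71, 95% interval 0.01 to 1.40, adjusted p = 0.0679). It was called with limma-voom (0.84, adjusted p = 0.0335), with total counts (0.99, adjusted p = 0.0103) and without UNT mouse 4, UNT mouse 9, RGLS4326 mouse 5 or RGLS4326 mouse 6 (0.77 to 0.96). In set 3 alone Cd2 (1.63, adjusted p = 0.0562) and Cd3d (1.29, adjusted p = 0.0516) were not called. The test of a difference between numbering sets called none of the 10 in this comparison, where 0.0128% of genes were called, with the lowest adjusted p at 0.145 (Cd4).

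**Figure D4:**
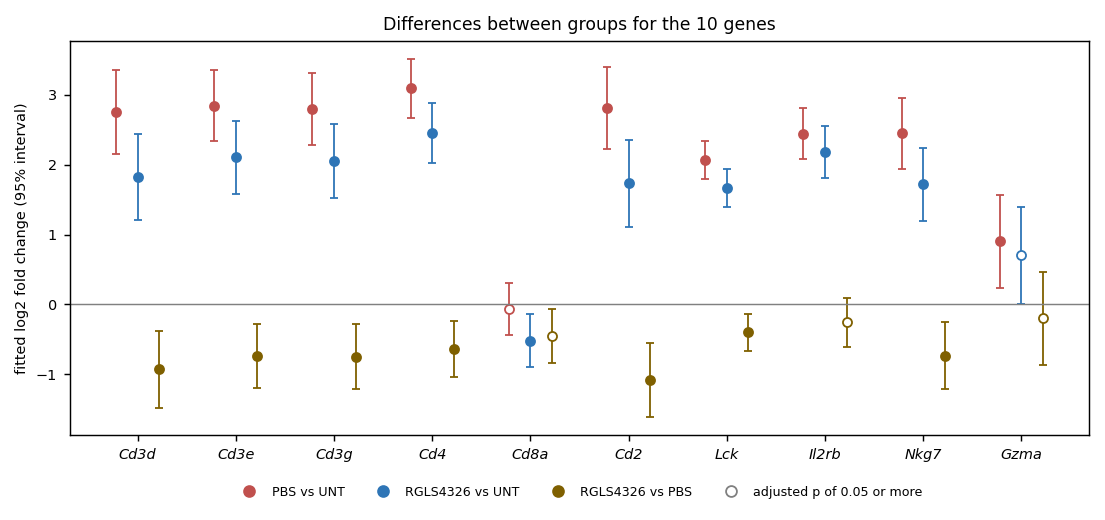
Fitted log2 fold changes of the 10 genes in the 3 comparisons, with 95% intervals from the standard errors, filled where the adjusted p was under 0.05. The 2 comparisons with UNT lie between 1.66 and 3.09 for 8 genes, RGLS4326 against PBS lies between -1.08 and -0.20, and Cd8a and Gzma stand apart from the other genes in the comparisons with UNT.

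The other T cell genes were read from lists of signalling and subset genes. The counts of this and the following lists stand beside 43.1% of all tested genes higher and 39.0% lower in PBS than in UNT, and beside 18.5% lower and 15.3% higher with RGLS4326 than with PBS (4.13% lower without PBS mice 9 to 11 and 0.211% with the covariate). As with the 10 genes, list genes whose UNT mean was under the filter cutoff, such as Cd5, Cd6, Pdcd1, Tnfrsf9, Klrg1, Klrb1c and Gzmb, passed the filter mainly through the Pkd2-KO mice, so the counts higher than UNT in each list were in part a condition of being tested. Of 18 further genes of T cell receptor signalling, 14 were tested and all 14 were higher in PBS than in UNT (median log2 fold change 2.09), beside 9 of the 10 genes described above. Lcp2, an adaptor also used by myeloid cells, went from 1.12 ± 0.18 to 13.7 ± 3.25 CPM (log2 fold change 3.59, adjusted p = 2.75e-22). Cd6, a coreceptor of T cells, had a log2 fold change of 3.02 (adjusted p = 9.85e-14). With RGLS4326, 4 of the 14 were lower than in PBS and 0 higher, where 18.5% of all tested genes were lower, among them Cd6 (-0.78, adjusted p = 0.00881), Cd5 (-0.87, adjusted p = 0.00947) and Skap1 (-0.49, adjusted p = 0.0125). Without PBS mice 9 to 11, 0 of this list were lower with RGLS4326, and 0 with the covariate.

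Of 18 genes of T cell subsets and checkpoints, 16 were tested, 13 were higher and 2 lower in PBS than in UNT (median 2.93). Tcf7, a transcription factor of naive and memory T cells, had a mean of 2.12 ± 0.51 CPM over UNT mice and of 16.6 ± 2.24 over PBS mice (log2 fold change 2.96, adjusted p = 4.1e-23). The part of cells other than T cells in the Tcf7 level was not tested. Tnfrsf9, the costimulatory receptor 4-1BB, had a log2 fold change of 5.50 (adjusted p = 2.76e-19), and Il2ra, the alpha chain of the interleukin-2 receptor that marks regulatory and activated T cells, of 3.08 (adjusted p = 5.01e-17). With RGLS4326, 7 were lower and 1 higher than in PBS. Pdcd1, the checkpoint receptor PD-1, fell most among the 3 named by the rule (-1.40, SE 0.31, adjusted p = 0.00314), beside Lag3 (-0.50, adjusted p = 0.00536) and Tcf7 (-0.42, adjusted p = 0.00506). Without PBS mice 9 to 11, 1 was lower and 0 higher.

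The genes that define NK cells were low in all groups. Ncr1, the NK receptor NKp46, had 1 to 8 counts per library in UNT, 2 to 15 in PBS and 1 to 12 in RGLS4326 mice and was not tested. Klrb1c, which encodes the receptor NK1.1, had 2 to 17 counts in UNT, 8 to 71 in PBS and 10 to 39 in RGLS4326 mice. It was higher in PBS than in UNT (log2 fold change 2.06, adjusted p = 3.94e-08). These NK genes, and Cd247 and Cd8b1 above, fall outside the rule for named genes and were chosen after their values were seen, to check the label of the set and as partner chains of its members. Eomes, a transcription factor of NK cells, and Prf1, the pore-forming protein perforin, were under the filter and not tested, with at most 20 counts in any library.

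Of 23 NK and cytotoxic genes, 12 were tested, and 10 were higher and 0 lower in PBS than in UNT (median 1.85), where 43.1% of all tested genes were higher. Ccl5, a chemokine of T and NK cells, rose from 0.739 ± 0.352 to 7.97 ± 4.01 CPM (log2 fold change 3.42, adjusted p = 5.99e-15), Cd244, a receptor of NK cells, had a log2 fold change of 2.28 (adjusted p = 6.01e-13) and Ctsw, a protease of cytotoxic lymphocytes, of 1.82 (adjusted p = 2.91e-09). With RGLS4326, 3 of the 12 were lower than in PBS, where 18.5% of all tested genes were, namely Gzmm (-0.52, adjusted p = 0.0166), Klrg1 (-1.01, adjusted p = 0.0275) and Ccl5 (-0.57, adjusted p = 0.0462). Gzmm, granzyme M, did not differ detectably between PBS and UNT (0.19, adjusted p = 0.244). Without PBS mice 9 to 11 none of the 12 was lower with RGLS4326.

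Cytokines, receptors and chemoattractants that act on lymphocytes moved in both directions. The part of cells other than lymphocytes in their levels was not tested. Of 22 such genes, 17 were tested, and 14 were higher and 2 lower in PBS than in UNT (median 2.16). Il18r1, a receptor chain for interleukin-18, went from 1.59 ± 0.33 to 67.8 ± 12.6 CPM (log2 fold change 5.41, adjusted p = 2.68e-27), the interleukin-21 receptor Il21r had a log2 fold change of 3.79 (adjusted p = 8.91e-22) and the chemokine receptor Ccr2 of 3.33 (adjusted p = 1.36e-21). Il15, a ligand of the receptor that contains Il2rb, was lower in PBS, at 6.33 ± 1.42 CPM against 24.2 ± 3.77 in UNT (-1.93, adjusted p = 1.01e-17), and was higher with RGLS4326 than with PBS (0.33, adjusted p = 0.0249). Cxcl16, a chemoattractant for T cells, was lower with RGLS4326 (-0.34, adjusted p = 0.00859), as was Il18r1 (-0.39, adjusted p = 0.00966). Without PBS mice 9 to 11, 1 gene of this list was lower with RGLS4326 and 0 were higher, with -0.38 for Il18r1 (adjusted p = 0.0478), -0.24 for Cxcl16 (adjusted p = 0.0845) and 0.35 for Il15 (adjusted p = 0.0588), and with the covariate 0 were called. Ccl19 and Ccl21a were listed at 0 in every library.

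Genes of other leukocytes moved beside the T and NK genes, and their part in the levels above was not tested. The 10 macrophage and monocyte genes were all higher in PBS than in UNT (median 4.38), their summed level going from 102.7 to 179.9 CPM in UNT to 758.3 to 1906 CPM in PBS and 705.5 to 1384 CPM in RGLS4326 mice. All 8 pan-leukocyte genes were higher in PBS (median 3.24), with sums of 49.2 to 90.5, 399.9 to 878.4 and 313.6 to 603.8 CPM. Of 8 dendritic cell genes 7 were higher in PBS (11.6 to 17.7 CPM in UNT, 34.6 to 70.5 in PBS), and 4 of 4 tested neutrophil genes were (0.532 to 5.38 and 3.18 to 27.6 CPM). No marker of these lists was at 0 in every library.

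The B cell and plasma cell list held genes higher and lower in PBS than in UNT. Of its 12 genes 10 were tested, and 3 were higher and 4 lower in PBS than in UNT (median -0.22), with summed levels of 9.93 to 13.7 CPM in UNT, 9.75 to 21.6 in PBS and 9.08 to 13 in RGLS4326 mice. Cd22 (3.14, adjusted p = 6.49e-16) and Cd79b (2.08, adjusted p = 2.84e-13) were higher, while the complement receptor Cr2 was lower (-2.23, adjusted p = 7.42e-13). With RGLS4326, 3 of the 10 were lower than in PBS and 0 higher, namely Igj (-1.57, adjusted p = 0.00653), Cd79b (-0.60, adjusted p = 0.0101) and Cd22 (-0.54, adjusted p = 0.0283), and without PBS mice 9 to 11 or with the covariate 0 were. Of 4 tested genes of group 2 innate lymphoid and mast cells 3 were higher in PBS, and the 1 tested gene of red blood cells was lower. None of 6 genes of immature lymphocytes passed the filter, with a summed level of at most 0.862 CPM in any mouse. Of 10 kidney epithelial genes, PBS mice had 8 lower and 2 higher than UNT mice, and their summed level was 16037 to 21584 CPM in UNT, 5297 to 8841 in PBS and 6750 to 9443 in RGLS4326 mice.

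In the macrophage list 5 genes were lower with RGLS4326 than with PBS and 0 higher (Cd68, -0.80, adjusted p = 0.00258, leading), and of the pan-leukocyte list 2 were lower (Arhgdib and Laptm5). Of the dendritic cell list 2 were lower and 1 higher, and of the neutrophil list 1 was lower (Cxcr2, -0.69, adjusted p = 0.0418), and none of these was called without PBS mice 9 to 11 or with the covariate. Of the epithelial list 7 were higher and 1 lower. Without PBS mice 9 to 11 the counts were 1 lower in the macrophage list (Cd68, -0.62, adjusted p = 0.0355), 0 in the pan-leukocyte list and 2 higher and 0 lower in the epithelial list, and with the covariate none of these genes was called. The CD3 chains amounted to a median of 11.7 CPM per 1000 pan-leukocyte CPM in UNT (7.20 to 21.5), 9.53 in PBS (5.61 to 16.0) and 7.41 in RGLS4326 mice (4.69 to 8.85). The groups overlapped in this ratio.

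Within groups, the 10 genes varied together to different degrees. After subtraction of each group's mean from log2(CPM + 1), the 45 pairs of genes had a median Pearson correlation of 0.64 over the 34 mice (0.04 to 0.86), and 0.44 without PBS mice 9 to 11. The points share libraries and depth, and the correlations are descriptions. Cd3d and Cd2 were the most alike, at 0.86. Cd8a was the least like the others, with a median of 0.40 against the other 9 genes, and 0.08 without PBS mice 9 to 11.

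The tested genes outside the set whose within-group pattern was most like the mean of the 10 were Ptprcap (r = 0.91, rho = 0.87), which encodes a partner of the leukocyte phosphatase CD45, and Cxcr3 (r = 0.88, rho = 0.84), a chemokine receptor of activated T cells. They were followed by Plbd1 (0.87), Cd7 (0.87), Pdcd1 (0.86), Ccr7 (0.85), a homing receptor of naive T cells, Ctsw (0.85) and Cd5 (0.84). Without the 2 most extreme mice, PBS mice 9 and 10, the r of Ptprcap was 0.86 and that of Cxcr3 0.82 over 32 mice. Ptprcap was higher in PBS than in UNT (log2 fold change 2.07, adjusted p = 1.66e-08) and had a value of -0.63 with RGLS4326 against PBS (adjusted p = 0.0568).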

How the data were processed

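Per the labels and the study's methods, the authors trimmed paired reads of stranded polyadenylated libraries with Trim Galore, aligned them with STAR to GRCm38 (mm10) and counted uniquely mapped reads per gene symbol with HTSeq 0.6.1. The deposited values are raw counts, 1 table of 23509 genes for each mouse, neither normalized nor pooled. The annotation and the strand setting of the counting are not given in the sources used here. The 5 summary rows of each table were left out of library sizes, and the share of reads in no gene (4.94% to 12.0%) served as a covariate in 1 alternative.

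Counts of all 34 libraries, grouped by the labels, were fitted together in edgeR 4.0.16 (R 4.3.3; TMM, filterByExpr with a minimum count of 10, quasi-likelihood test, two-sided, Benjamini-Hochberg over 15644 genes), with a call meaning an adjusted p below 0.05. The procedure was tested on simulated data. Intervals are normal 95% intervals from the fitted standard errors. Nothing in the labels ties replicate numbers to shared animals or litters. The members and lists were chosen with earlier results of these data known, and no set test was run. Named genes were the 10 members, the 3 called genes with the smallest p per list in PBS vs UNT and in RGLS4326 vs PBS, and the 8 genes most like the members within groups. Not all genes that this rule names are reported here. Fold changes of low genes and counts near 0 carry counting error, which intervals for a count of 0 (3 counts) cover alone. Alternatives were DESeq2 1.42.0, limma-voom 3.58.1, other scalings, filters, covariates and left-out mice. Of 167 list genes, 3 were found under an older symbol and 1, the neutrophil gene Ly6g, was not found among the counted symbols. Sequences come from RefSeq (GRCm38.p6) and GENCODE M21 (GRCm38).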

Additional observations from a re-analysis of the deposited data

How the results depend on the processing

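Of 478 recomputed values of single genes per comparison, 465 kept their sign and their side of the threshold in PBS vs UNT, 431 in RGLS4326 vs PBS and 465 in RGLS4326 vs UNT. The number of the 10 genes called in RGLS4326 vs PBS, 7 with all mice, was 0 in numbering set 1 alone, 4 in set 2 alone, 0 in set 3 alone, 0 with reads in no gene as a covariate and 0 without PBS mice 9 to 11 (chosen after seeing the data). It was 3 to 8 when each mouse was left out in turn, where 2070 to 3329 tested genes were lower. Without PBS mouse 9 it was 3, where 2070 of 15679 were lower. What these mice or the covariate stand for was not tested. With limma-voom (Cd3g not called), the replicate block (Lck not called) and the stricter filter (Cd2 not tested) it was 6. In these fits 2816 of 15644, 2823 of 15644 and 2804 of 14429 tested genes were lower. In PBS vs UNT the number called higher was 7 to 9, the lowest under the stricter filter, which did not test Cd2 and Gzma. Under that filter 6231 of 14429 tested genes were higher. Scaling by total counts moved the split of all genes from 6746 higher and 6095 lower to 8970 and 4099.

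The sign turned for values that were not called under the alternative. For Cd8a in PBS vs UNT it was 0.0099 in set 2 alone, 0.46 in set 3 alone, 0.14 with the covariate, 0.23 with total counts, 0.00013 without PBS mouse 4 and 0.019 without UNT mouse 1, the left-out mice giving -0.19 to 0.019 in all. For Gzma it was -0.068 with the covariate in PBS vs UNT and -0.077 in set 2 alone in RGLS4326 vs UNT. In RGLS4326 vs PBS it was 0.28 in set 1 alone, 0.20 with the covariate and 0.12 without PBS mice 9 to 11 for Gzma, 0.12 in set 1 alone and 0.047 without these mice for Il2rb, and 0.036 for Cd3d and 0.11 for Cd8a in set 1 alone. Of the 8 genes most like the set, 3 were shared when ranked by Spearman's rho and 4 without the 2 most extreme mice. The ranking by rho brought in Ear2, H2-Eb1, H2-Aa, Cd74 and Itgb7. Leaving out the 2 mice brought in Ltb, Itgb7, H2-Aa and H2-Eb1.

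Replicate numbers did not pair the samples: over 33 same-numbered pairs, correlations of deviations ran from -0.42 to 0.45, 10 were over 0.1 and 5 libraries correlated best with their own number. With the number as a replicate block, 9 genes stayed called in PBS vs UNT, 6 in RGLS4326 vs PBS and 9 in RGLS4326 vs UNT. Of all 15644 tested genes, 12781, 5098 and 12162 were called in these comparisons. For Cd2, Gzma, Nkg7 and the CD3 chains, a few counts per UNT library limit the precision of every fold change against UNT.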
